A study of Mus musculus with 3 samples.

Results

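The elastic fibre and microfibril genes Fbn1, Fbn2, Eln, Fbln1, Fbln2, Fbln5, Efemp1, Efemp2, Mfap2 and Mfap5 were examined in cells sorted from the fetal mouse kidney. The members were all probe sets whose platform annotation gives a single symbol among these 10 genes. There were 16 such probe sets for 8 of the 10 genes, of 34945 probe sets for 18193 genes in all; Fbn1 and Efemp2 had none and were not analysed here. The cells came from CD-1 mice that carry the transgene Tg(Meis1-EGFP)FO156Gsat, which makes enhanced green fluorescent protein (EGFP) under Meis1 control elements. Kidneys at E15.5, counted in embryonic days (Theiler stage 23; sex given as unknown) were pooled, about 20 to a lot, dissociated with trypsin and sorted for green cells, and RNA of each of 3 lots was put on 1 array. The labels name the cells as nephrogenic interstitium, the stroma between the forming nephrons, and the series title names them as peripheral blastema. All 3 arrays are 1 group with the same genotype, age and handling. Neither an unsorted nor an EGFP-negative group was analysed here, so the values show which transcripts were measured in the sorted cells, not what the sort enriched.

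Elastic fibres let tissue stretch and recoil. A core of cross-linked elastin lies on a scaffold of microfibrils, which are bundles of the giant glycoproteins fibrillin-1 and fibrillin-2 decorated with small microfibril-associated glycoproteins. Fibulins link elastin, the cross-linking lysyl oxidases and the microfibrils, and microfibrils also hold latent TGF-beta complexes in the matrix. In many developing tissues microfibrils are also found without an elastin core.

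Each gene was asked for signal beyond background. Chemosensory receptor genes, which are made in sensory neurons, gave the background, and the 95th percentile of 71 of them was taken as the level of that array. This level was a signal of 136, 186 and 169 in replicates 1, 2 and 3, where the median signals of all probe sets other than controls were 143, 162 and 187. The distance of a gene is its log2 signal minus that level, and it was tested above 0 with limma over all 18193 genes (one-sided, Benjamini-Hochberg adjusted p under 0.05). Of several probe sets for a gene, the one with the highest mean signal was used, and a second fit covered all 34945 probe sets singly. Probe sets differ in affinity, so the signal of one gene was not ranked against that of another. The nephrogenic interstitium markers were above background in 7 of 7 measured cases. Foxd1, a transcription factor of cortical stroma, had signals of 28357, 31760 and 25999, and Meis2 had 27360, 38046 and 29694. Meis1 had 18605, 18605 and 18247. The cells were sorted on EGFP under Meis1 control elements, so the Meis1 signal is not independent of the sort. Cap mesenchyme markers were above background in 4 of 6 cases, ureteric bud markers in 4 of 8, endothelial markers in 4 of 7, leukocyte markers in 1 of 6 and erythroid markers in 1 of 5. Of all genes, 57.3% were above background. Distances in these lists reached 3.46 log2 units for cap mesenchyme, 4.12 for ureteric bud, 2.85 for endothelium, 1.14 for leukocytes and 0.92 for erythroid cells. The purity of the sorted cells was not tested.

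All 8 measured members were above background (8 of 8 genes, against 57.3% of all genes), and 8 of 8 exceeded the level on each of the 3 arrays (59.2% of all genes did). They lay at a median distance of 4.89 log2 units where the median over all genes was 1.51. Of their probe sets, 12 of 16 were above background, against 48.6% of all probe sets. Fbn2, Mfap2 and Mfap5 were above background with both of their probe sets and Efemp1 with its single one. Eln, Fbln2 and Fbln5 each rested on 1 of 2 probe sets, and Fbln1 on 2 of 3. Among all genes above background that had several probe sets, 66.3% had at least 1 that was not above, and among the members 4 of 7 did.

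**Figure D1:**
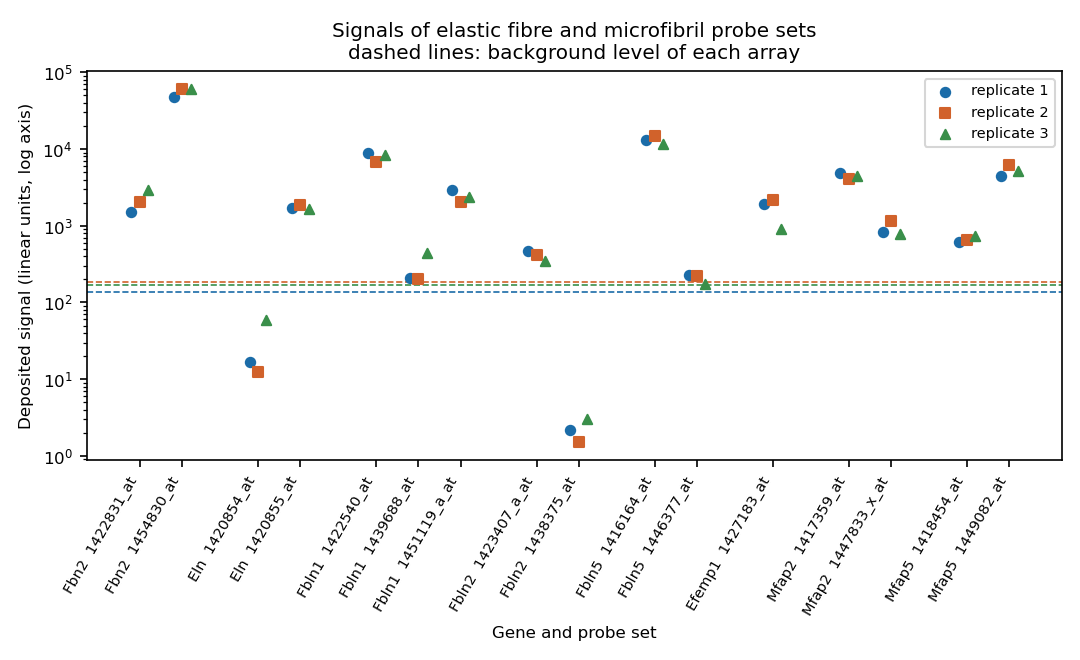
Deposited signal of each of the 16 probe sets (log axis, linear units), with 1 point for each of the 3 arrays and dashed lines at the 3 background levels of 136, 186 and 169. The second probe sets of Eln and Fbln2 lie below all of the lines. The probe sets of Fbln1 and Fbln5 that were not called exceed the line of the same array each time. They do so by little except for Fbln1 in replicate 3, at 445. The other 12 lie above all of the lines on every array.

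Fibrillin-2, the product of Fbn2, is the fibrillin made mainly in the embryo and forms the microfibril backbone. Its brighter probe set, 1454830_at, had signals of 47889, 59825 and 60703 in replicates 1, 2 and 3. The lowest of these arrays was replicate 1, and all 3 lay far above their levels. Fbn2 was thus 8.42 ± 0.19 log2 units above background (moderated SE over 3 arrays; 343-fold, adjusted p = 1.04e-06 by limma). The other probe set, 1422831_at, had signals of 1525, 2051 and 2950 and lay 3.69 ± 0.24 log2 units above (limma adjusted p = 3.60e-05 over all probe sets). Both probe sets were above background on all 3 arrays.

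Mfap2 and Mfap5 encode the microfibril-associated glycoproteins MAGP-1 and MAGP-2, small proteins that bind fibrillin. For Mfap2, probe set 1417359_at had signals of 4802, 4064 and 4504, with replicate 2 the lowest. The gene lay 4.77 ± 0.23 log2 units above background (moderated SE over 3 arrays; 27.4-fold, adjusted p = 3.00e-06 by limma). Its other probe set, 1447833_x_at, had signals of 820, 1149 and 781 and lay 2.47 ± 0.22 above (limma adjusted p = 0.000120 over all probe sets), with replicate 2 the highest here. The suffix of that probe set marks probes that can bind transcripts of other genes. For Mfap5, probe set 1449082_at had signals of 4463, 6203 and 5193, and the gene lay 5.01 ± 0.19 above background (32.2-fold; limma adjusted p = 1.56e-06). Its dimmer probe set, 1418454_at, had signals of 610, 657 and 732 and lay 2.03 ± 0.21 above (limma adjusted p = 0.000248 over all probe sets). On each array both probe sets of both glycoprotein genes exceeded the background level.

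Eln encodes tropoelastin, the soluble precursor that is cross-linked into the elastic core. Probe set 1420855_at had signals of 1708, 1850 and 1659, which all lay above the levels and close together. Eln lay 3.42 ± 0.20 log2 units above background by this probe set (moderated SE over 3 arrays; 10.7-fold, adjusted p = 7.81e-06 by limma). The second probe set, 1420854_at, had signals of 16.9, 12.2 and 59.1, below the level on every array, and lay at -2.82 ± 0.48. The Eln call therefore belongs to 1 probe set. When the probe sets of every gene were averaged, those of the background genes included, the levels became 6.88, 7.27 and 7.26 on the log2 scale in place of 7.09, 7.54 and 7.40. Eln then lay 0.50 log2 units above the new level and was not called (limma adjusted p = 0.106). Other values over several probe sets refer to these lower levels too.

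The fibulins are calcium-binding glycoproteins with repeated EGF-like modules. Fibulin-5, the product of Fbln5, brings tropoelastin and lysyl oxidase-like enzymes to microfibrils and binds integrins on the cell surface. Its probe set 1416164_at had signals of 12949, 14710 and 11536, and Fbln5 lay 6.32 ± 0.21 log2 units above background (moderated SE over 3 arrays; 80.0-fold, adjusted p = 1.10e-06 by limma). The second Fbln5 probe set, 1446377_at, had signals of 230, 222 and 176. These exceeded the level on each array by a little, and the distance of 0.36 ± 0.24 did not pass the test (limma adjusted p = 0.188 over all probe sets).

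Fibulin-1, the product of Fbln1, is found in elastic fibres and basement membranes and binds fibronectin. Probe set 1422540_at had signals of 8767, 6839 and 8461, and Fbln1 lay 5.62 ± 0.24 log2 units above background (moderated SE over 3 arrays; 49.1-fold, adjusted p = 2.01e-06 by limma). Probe set 1451119_a_at had signals of 2896, 2054 and 2357 and lay 3.89 ± 0.26 above (limma adjusted p = 4.11e-05 over all probe sets). Replicate 2 was the lowest array for both. Probe set 1439688_at had signals of 209, 203 and 445 and lay at 0.71 ± 0.30, above the level on every array but without passing the test (limma adjusted p = 0.0655 over all probe sets). It counted as above under 6 of the 14 alternatives that keep single probe sets, among them leaving out replicate 2 (1.00, limma adjusted p = 0.0289).

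Fibulin-2, the product of Fbln2, binds fibrillin and several basement membrane proteins. Its probe set 1423407_a_at had signals of 463, 419 and 351, and Fbln2 lay 1.33 ± 0.23 log2 units above background (moderated SE over 3 arrays; 2.51-fold, adjusted p = 0.00145 by limma). The second probe set, 1438375_at, had signals of 2.15, 1.50 and 3.02 and lay at -6.25 ± 0.30, below the level on every array. With both probe sets averaged, Fbln2 lay at -2.26 from the lower levels given for Eln, so its call holds for 1 probe set and not for the gene's probe sets together.

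Efemp1 encodes fibulin-3, a short fibulin of the extracellular matrix. Its single probe set, 1427183_at, had signals of 1911, 2162 and 900. All lay above the levels, with replicate 3 lower than both of the others. Efemp1 lay 3.25 ± 0.32 log2 units above background (moderated SE over 3 arrays; 9.53-fold, adjusted p = 8.34e-05 by limma), and 3.67 above without replicate 3.

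The RNA was amplified in 2 rounds, and on all 3 arrays the 3' end of both control transcripts gave far more signal than the 5' end. For Gapdh the 3' control exceeded the 5' control by 5.00, 5.39 and 5.26 log2 units in replicates 1, 2 and 3, and for Actb by 3.04, 3.40 and 3.04. The part of this in the disagreement between probe sets of Eln, Fbln2, Fbln1 and Fbln5 was not tested.

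Promoter windows were the 250 bases before the start, from RefSeq on GRCm38.p6. They were searched for 5 of the 8 measured members, in 8 windows of Fbln1, Fbln2, Fbln5, Efemp1 and Mfap2. Eln and Mfap5 had no window. Fbn2 was not searched, because the search of member windows left out its chromosome. The windows of all genes include that chromosome, so the counts for members and for all genes do not cover the same chromosomes. A window each of Fbln5 and Mfap2, both far above background, and of Efemp1, the member that differed most between arrays, is shown. These windows hold the motif found most often in the members' windows. They are read 5' to 3' in the direction of the gene. Capitals mark GGGCGG, the GC box, or its reverse complement CCGCCC, and in Efemp1 also TGAATCA, a match to the AP-1 motif TGANTCA.
Fbln5, chr12:101819120-101819369, minus strand: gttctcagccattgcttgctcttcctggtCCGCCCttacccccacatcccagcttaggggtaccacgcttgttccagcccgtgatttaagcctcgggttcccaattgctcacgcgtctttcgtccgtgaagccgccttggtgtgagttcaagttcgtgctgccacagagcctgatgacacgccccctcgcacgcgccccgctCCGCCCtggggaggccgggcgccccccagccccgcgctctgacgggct
Mfap2, chr4:141010431-141010680, plus strand: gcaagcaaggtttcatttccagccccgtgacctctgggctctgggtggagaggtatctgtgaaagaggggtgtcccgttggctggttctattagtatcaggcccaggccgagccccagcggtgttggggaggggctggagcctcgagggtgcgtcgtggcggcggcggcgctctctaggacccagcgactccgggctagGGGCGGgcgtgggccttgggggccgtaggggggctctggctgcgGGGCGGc
Efemp1, chr11:28852955-28853204, plus strand: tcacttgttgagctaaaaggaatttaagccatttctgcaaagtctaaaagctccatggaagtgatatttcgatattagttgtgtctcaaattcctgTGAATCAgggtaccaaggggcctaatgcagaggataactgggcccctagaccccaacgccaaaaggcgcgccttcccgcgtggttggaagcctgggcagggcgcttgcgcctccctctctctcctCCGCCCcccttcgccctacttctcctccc

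The GC box letters stood in 5 of the 8 windows (32.7% of all 32851 windows of the same length). By gene, 5 of 5 had it in at least 1 window, against 35.4% of all 27025 genes. Fbn2, Eln and Mfap5 were not among these 5, so the count does not cover all 8 measured members. Fbln1, Fbln5 and Mfap2 had more than 1 window each, which gives more chances of a match. The windows with the GC box were 53.6% to 68.8% G or C, where the median of all windows was 52.4%. The part of base content in the count was not tested. Counted from the start of transcription, the first base of a match lay at -221 and -48 in Fbln5, at -51 and -7 in Mfap2 and at -29 in Efemp1. TGANTCA was found in 1 of the 8 windows (6.75% of all windows), at -154 in Efemp1, and CATTCC, the core bound by TEAD factors, in 1 (12.6% of all windows), in the other window of Mfap2. TATAAA, the TATA box (12.4% of all windows), and TGACAG, the core that Meis proteins bind (15.9% of all windows), were in 0 of the 8 windows. Both strands were searched, and windows of 1 gene can overlap. The matches describe these letters in these windows only.

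Other genes of elastic fibre assembly, cell binding and breakdown were taken from chosen lists. Of 44 genes in 8 lists, 40 had a value and 27 of these were above background (67.5%, median distance 2.53 log2 units, against 57.3% and 1.51 for all genes). Loxl2, Hmcn2, Adamts17 and Fkbp10 had no value and were not analysed here. Probe sets that were not above background are given below for some of the called genes only.

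The cross-linking enzymes, which oxidise lysines of tropoelastin and collagen, were above background in 4 of 4 cases. Lox had signals of 6132, 6290 and 6443, nearly alike on the 3 arrays, and lay 5.27 ± 0.21 log2 units over its level (SE, n = 3; limma adjusted p = 1.58e-06). Loxl1, the enzyme tied most closely to elastin and fibulin-5, had signals of 6578, 6187 and 4565 and lay 5.13 ± 0.24 above. Loxl3 lay at 3.91 ± 0.21 and Loxl4 at 2.62 ± 0.20. Lox was above background with 2 of 3 probe sets, Loxl1 and Loxl4 with 1 of 2 each, and Loxl3 with its single one.

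Latent TGF-beta binding proteins, relatives of the fibrillins that tether the growth factor to microfibrils, were above background in 3 of 4 cases. Ltbp3 had signals of 20745, 24872 and 19900 and lay 7.06 ± 0.20 log2 units above (SE, n = 3; limma adjusted p = 1.04e-06). Ltbp1 lay at 3.34 ± 0.25 and Ltbp4, which also takes part in elastin deposition, at 1.50 ± 0.21. Ltbp2 had signals of 50.7, 39.2 and 62.3, below the level on each array, and was not above background (-1.71 ± 0.25). Only 1 of 3 Ltbp1 probe sets was above background, and the average of the 3 was -0.28.

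Emilins, multimerins and Mfap4, glycoproteins at the surface of elastic fibres or vessels, were above background in 3 of 6 cases. Mfap4, which binds elastin and fibrillin, had signals of 8454, 8585 and 8386 and lay 5.70 ± 0.21 log2 units above (SE, n = 3; limma adjusted p = 1.32e-06). Emilin1 lay at 5.69 ± 0.20 and Emilin3 at 3.48 ± 0.22, while Emilin2 (0.16 ± 0.20) and Mmrn1 (-1.30 ± 0.22) were not above background. Of the other fibulins, 2 of 2 were above: Hmcn1, a very large fibulin, at 4.48 ± 0.21 and Fbln7 at 1.50 ± 0.20.

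ADAMTS proteases and their protease-free relatives, several of which bind fibrillin, were above background in 4 of 7 cases. Adamts6 lay 2.96 ± 0.21 log2 units above (SE, n = 3), Adamts10 2.29 ± 0.20, Adamtsl4 1.29 ± 0.23 and Thsd4, which promotes microfibril assembly, 2.44 ± 0.24. When its probe sets were averaged, Thsd4 was no longer called (0.41, limma adjusted p = 0.138). Adamtsl2 (-1.71 ± 0.37) and Adamtsl3 (0.17 ± 0.21) were not above background. Helpers of processing and assembly were above in 3 of 3 cases. These were Fn1, whose fibronectin network templates fibrillin assembly, at 7.86 ± 0.20, Atp7a, the copper pump that loads lysyl oxidases, at 5.75 ± 0.20, and Furin, the protease that trims profibrillin, at 1.68 ± 0.22.

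Integrin subunits that take part in binding fibrillins or fibulins were above background in 4 of 7 cases. Itgav lay 7.85 ± 0.20 log2 units above (SE, n = 3), Itgb1 5.69 ± 0.22, Itga8 5.46 ± 0.24 and Itgb5 3.37 ± 0.24. Itgb3 had signals of 193, 22.9 and 101, above the level on 1 array only, and was not called (-1.09 ± 0.64), and Itgb6 lay at -1.16 ± 0.23. For Itgav 2 of 5 probe sets were above background, with a median of -0.18. Proteases able to cut elastin or microfibrils were above background in 4 of 7 cases, with the gelatinase Mmp2 at 7.19 ± 0.20, the cathepsin Ctsk at 4.04 ± 0.21, the membrane protease Mmp14 at 3.80 ± 0.22 and Ctss at 1.55 ± 0.19. Neutrophil elastase, Elane (-2.11 ± 0.28), and Mmp9 (-0.23 ± 0.23) were not above background.

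**Figure D2:**
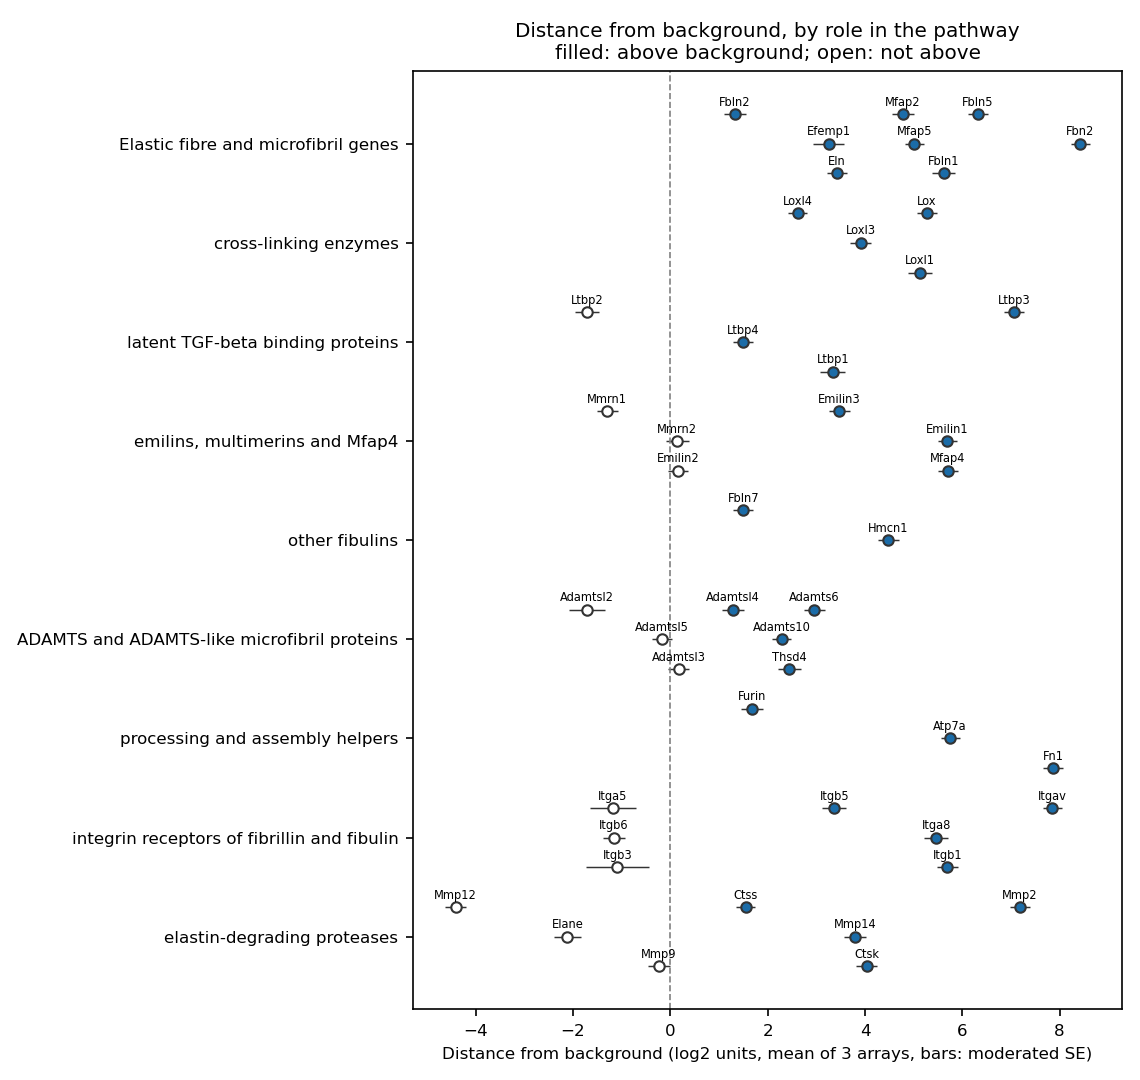
Distance from background in log2 units (mean of 3 arrays, bars are moderated SE) for the 8 members and 40 other genes of the pathway, in rows by role; filled points were above background and open points were not. All 8 members and all 4 measured cross-linking enzymes are filled while 3 of 7 integrin subunits and 3 of 7 proteases are open.

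Elastin and fibulins are also made by smooth muscle and mural cells of vessels and ureter. The smooth muscle markers were above background in 3 of 7 cases, with summed signals of 9443, 7971 and 7742 in replicates 1, 2 and 3. Acta2, a contractile actin that stroma can also make, supplied 7758, 6284 and 6072 of these sums and lay 5.36 ± 0.24 log2 units above (SE, n = 3), Smtn 2.40 ± 0.22 and Myocd, a cofactor of the contractile programme, 0.89 ± 0.32. Tagln (-0.41 ± 0.27) and Myh11 (0.00 ± 0.20), which encode contractile proteins, did not pass. Acta2 lay at -1.89 without probe sets that may cross-hybridise, and Myocd lost its call without replicate 1 or replicate 3 (0.82 and 0.55). Pericyte and mural markers were above in 5 of 5 cases, with summed signals of 18833, 19787 and 15986. Among them Pdgfrb lay at 5.98 ± 0.22, Cspg4 at 4.11 ± 0.20 and Rgs5 at 2.92 ± 0.27; 1 of 4 Rgs5 probe sets was above background, and their average was -0.63. The part of such cells in the signals of Eln and the fibulins was not tested.

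The 3 arrays were then compared after each was centred on its median over genes. With 1 group this is a description, with no test. The median SD over the arrays was 0.19 log2 units for the 8 members and 0.16 for all 10422 genes above background. Eln had an SD of 0.08 (82.2% of the genes above background had a larger SD) and Mfap2 one of 0.11. After quantile normalization the SD was 0.14 for both and 0.12 for Fbln5, against 0.17 for Fbln5 before, so which member varied least depends on the normalization. Efemp1 varied most (SD 0.68), and 0.518% of the genes above background had a larger SD. Replicate 3 was 1.16 log2 units below the mean of the others for Efemp1, and 1.03 below it after quantile normalization. Of the other 7 members, the largest single difference was that of Mfap5 in replicate 1, at -0.37, and -0.55 after quantile normalization.

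The members did not share one ordering of the arrays. After centring, the highest array was replicate 1 for 3 members, replicate 2 for 4 and replicate 3 for 1. Among all 10422 genes above background it was replicate 1 for 3824, replicate 2 for 3599 and replicate 3 for 2999. The lowest array was replicate 1 for 2 members, replicate 2 for 2 and replicate 3 for 4. Counts of the lowest array over all genes were not made, so those given here have no share beside them. Replicate 3 was also the lowest array for 4 of 7 smooth muscle markers, 1 of 5 pericyte and mural markers, 1 of 7 endothelial markers, 1 of 6 leukocyte markers and 3 of 5 erythroid markers. Against -1.16 for Efemp1, the difference of replicate 3 from the others ran from -0.69 (Tagln, itself not above background) to 1.12 (Myocd) over the 7 smooth muscle markers. Over the 5 pericyte and mural markers it ran from -0.43 (Pdgfrb) to 0.10 (Cspg4). The range was -1.12 to 0.20 over the 6 leukocyte markers, -0.97 to 0.60 over the 5 erythroid markers and -2.29 to 2.19 over the 7 endothelial markers. The genes at the ends of these last ranges were not above background. Fewer cells of a type and less RNA per cell cannot be told apart in these pools, and the part of cell makeup in the Efemp1 difference was not tested.

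**Figure D3:**
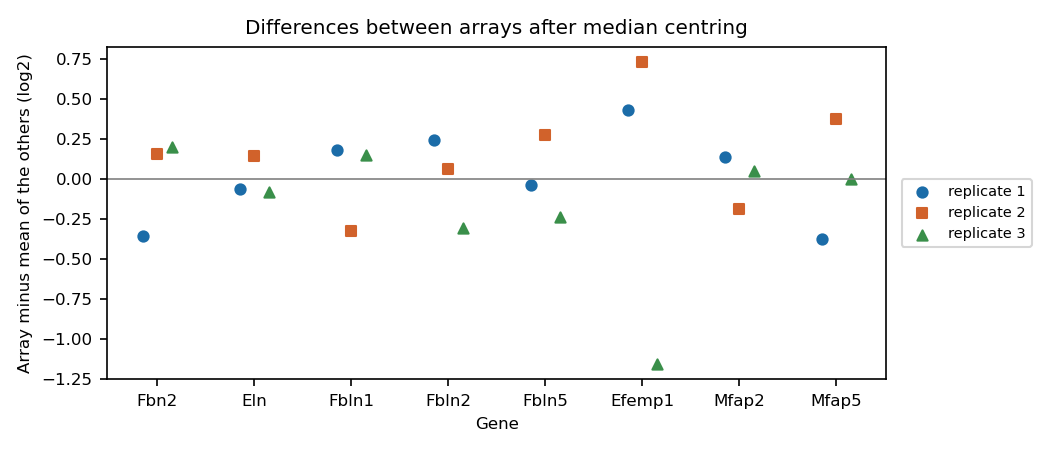
Each array minus the mean of the other arrays (log2, after median centring) for the 8 members above background; each point is 1 array. Efemp1 spreads from 0.73 in replicate 2 to -1.16 in replicate 3, while every other member lies between -0.37 and 0.37.

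The distances were recomputed under 16 alternatives. Fbn2, Fbln1, Fbln5, Efemp1, Mfap2 and Mfap5 were called under each of them, and Eln and Fbln2 under 14, the exceptions for both genes being the mean and the median over probe sets. Fbn2 ranged from 6.26 to 8.78, Fbln5 from 3.54 to 6.67, Fbln1 from 3.61 to 5.97, Mfap2 from 3.83 to 5.13 and Mfap5 from 3.73 to 5.36. For these 5 genes the lowest value came from the mean over probe sets. Efemp1, with a single probe set, ranged from 2.77 to 3.67.

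**Figure D4:**
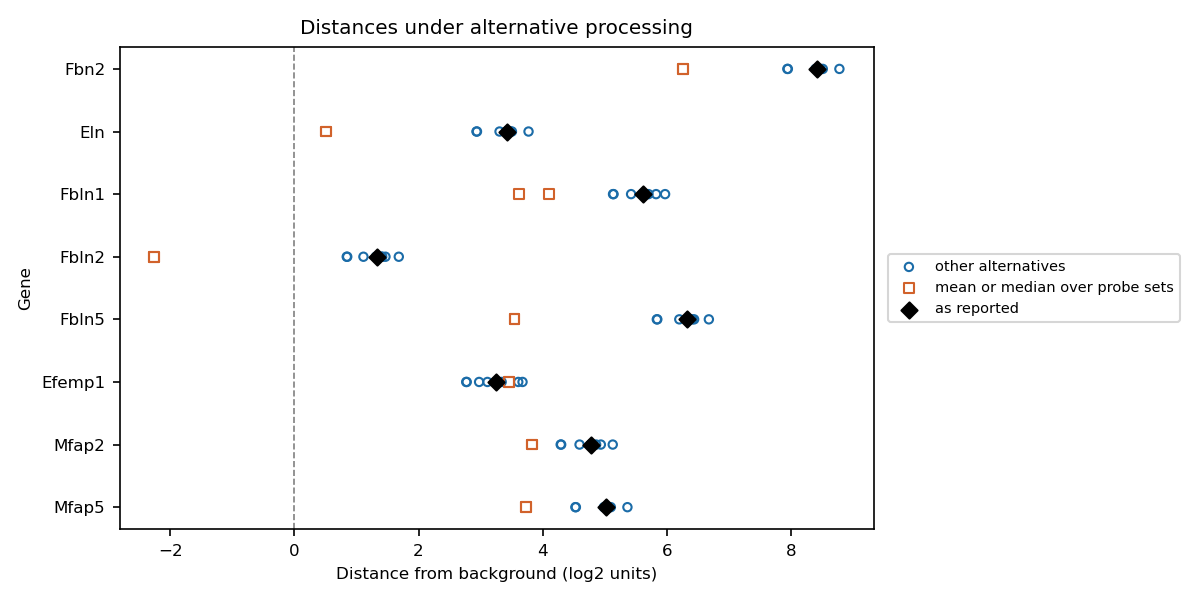
Distance from background in log2 units for each of the 8 members as reported (black diamonds), with the mean or median over probe sets and levels recomputed alike (squares) and under the other alternatives (circles). Squares fall to 0.50 for Eln and to -2.26 for Fbln2, while all other points of these genes and all points of the other 6 lie right of the dashed line at 0 and were called.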

How the data were processed

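The authors deposited linear intensity values for 45101 probe sets on each array. GCOS is named in the submitters' processing notes; its version, signal algorithm, scaling target and genome build, not given in the sources used here, remain unknown. With 2% trimmed from both ends, each array averaged 1500.01, so no further normalization was applied. Signals were all above 0, and log2 was taken without a pseudocount. The 64 control probe sets, 932 with several symbols and 9160 with none were left out.

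Tests used limma 3.58.1 in R 4.3.3 (lmFit with an intercept, eBayes, prior df 3.69, threshold 0.05). SEs are moderated and carry the spread of the background levels. Background genes were those with symbols of odorant, vomeronasal or trace amine receptors (Olfr, Vmn, Vr or Taar symbols). The method was tested on simulated data. Distances are log2 ratios to that level. Separate litters are not named for the pools. The p-values therefore reflect spread between these 3 samples alone, and that spread may be technical. For each gene this spread, with 2 residual df, was combined by eBayes with a spread pooled over all genes, with prior df 3.69. The number of arrays limits the precision.

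The members and lists were chosen with earlier results of these data known. Named are all members, the first 4 genes above background and the first 2 not above in each pathway list, and the first 3 and 2 in the marker lists set beside a result; Fbn1 and Efemp2 and genes without a value are named as such. Alternatives were 14 planned settings and 2 added after seeing the data.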

Additional observations from a re-analysis of the deposited data

How the results depend on the processing

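All 8 measured members were above background under each alternative except the mean and the median over probe sets, where 6 were. Their 16 probe sets gave 12 calls and between 11 and 14 under the alternatives; 11 came from 15 probe sets, without those that may cross-hybridise, and 14 at the 90th percentile and with the rule of exceeding the level on all 3 arrays. Over all genes, 10422 were called, and between 8966 (median over probe sets) and 10976 (90th percentile). Quantile normalization left the median distance of all genes at 1.50 against 1.51. Other settings moved the medians of 1.51 for all genes and 4.89 for the members. They were 0.61 and 3.58 with the mean over probe sets and 0.54 and 3.64 with the median. With the dimmest 25% left out they were 2.96 and 4.89. The pseudogene Vmn2r-ps54 as an added background gene gave 10432 calls, and the level over all chemosensory probe sets 10498; both settings were chosen after seeing the data. No count of a pathway list moved by more than 1.5 times.

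Several distances turned below background when probe sets of a gene were combined, which also lowered the levels. With the mean, Fbln2 lay at -2.26, Ltbp1 at -0.28, Acta2 at -0.33, Myocd at -1.13 and Rgs5 at -0.63. With the median, Fbln2 lay at -2.26, Ltbp1 at -1.35, Itgav at -0.18, Acta2 at -1.69, Myocd at -1.13 and Rgs5 at -1.27. Without probe sets that may cross-hybridise Acta2 lay at -1.89. These settings average or drop probe sets by construction. The smooth muscle count was 1 with the mean and 1 with the median, and the leukocyte count was 0 with both and 2 at the 90th percentile. The erythroid count was 0 at the 99th percentile and with a level from genes restricted to other tissues, and ran from 0 to 1 when 1 replicate was left out (0 without replicate 1 or replicate 3); the cause was not tested.

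No paired analysis was possible because the series has 1 group. Signal near background limits the calls: the lowest distance called was 0.48 log2 units.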
